A study of Mus musculus with 12 samples.

Results

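Bone, cartilage and tendon regulators were followed in mouse embryonic fibroblasts (MEFs), the connective-tissue cells that grow out of dissociated embryos. The set was 10 genes chosen by name, with earlier results of these data known: Dlx5, Dlx3, Msx1, Msx2, Runx2, Sp7, Sox9, Alpl, Scx and Tnmd. Of these, 8 had an array probe set assigned to them alone, out of 22180 genes measured, and where a gene had several the brightest on average over the arrays stood for it. The other 2 have no values here: no probe set assigned to Runx2 was used, and both probe sets of Msx1 are assigned jointly to the antisense gene Msx1os. All 8 lay above the 25th percentile of gene levels, so none would have been lost to a filter on low signal.

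Total RNA was hybridised to 1-colour Affymetrix arrays, 12 in all, in 4 groups of 3. The groups were wild type (WT) fibroblasts at day 0, before reprogramming, WT fibroblasts at day 4, and Gdap1-null (KO) fibroblasts at day 0 and at day 4, all grown in DMEM with serum. Gdap1 encodes an outer mitochondrial membrane protein that acts in mitochondrial fission. Day 4 cells had expressed the reprogramming factors Oct4, Sox2, Klf4 and cMyc after an overnight transduction, and the treatment label shared by all arrays also names a mock transduction without assigning it to a group. Strain and embryonic age are not given in the labels, and the labels do not say whether arrays of a group came from separate embryos or cultures. The p-values therefore measure only the spread between these arrays, which may be technical.

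These genes sit at successive steps of skeletal differentiation. BMP-responsive homeobox factors of the Dlx and Msx families act early, RUNX2 and then SP7 (osterix) commit cells to the osteoblast fate, and ALPL, tissue-nonspecific alkaline phosphatase, allows mineral to form. SOX9 is the master regulator of cartilage, whereas the basic helix-loop-helix factor SCX (scleraxis) specifies tendon progenitors and TNMD (tenomodulin), a transmembrane protein, marks their maturation. Fibroblast cultures of this kind are mixed, and in bulk RNA fewer cells of a type and less RNA per cell cannot be told apart.

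The fibroblast label was borne out by its defining genes: all 8 fibroblast markers, among them Col1a1, Col1a2 and Pdgfra, were above the 25th percentile, and their mean log2 level lay between 10.74 and 11.32 in every array. Gdap1 itself had log2 levels between 2.82 and 3.30 over all 12 arrays, at the 14.1 percentile of genes, too near the floor to check the genotype. Klf4, a transduced factor, rose at day 4 by 2.94 ± 0.09 on the log2 scale in WT cells (SE, n = 3 arrays per group, limma adjusted p = 9.02e-10). In KO cells Klf4 rose by 3.28 ± 0.09 (adjusted p = 2.92e-10). Here and below the SE pools the spread of all 4 groups and is moderated over genes. It is therefore not the spread of the compared arrays alone. The mean Pearson correlation of WT day 4 array 1 with its own group, across genes, was 0.987, the lowest of the 12 arrays. Macrophage markers differed between the genotypes. Their mean log2 level was 6.53 to 6.57 in WT day 0 and 6.30 to 7.16 in WT day 4 arrays, against 5.20 to 5.26 in KO day 0 and 5.29 to 5.37 in KO day 4 arrays. Of these 7 markers, 6 were lower in KO cells at each day, and all 7 were above the 25th percentile. Among all genes 3.12% were lower in KO cells at day 0 and 12.4% at day 4, at an adjusted p under 0.05.

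RefSeq promoter sequence (GRCm38.p6) was at hand for Tnmd and Msx2 among the members that were lower at day 4 in both genotypes, and it is shown because these genes moved in the same direction. Each run is the 250 bases before the annotated transcription start, 5′ to 3′ on the gene's strand, chrX:133850758-133851007 (plus strand) for Tnmd and chr13:53472781-53473030 (minus strand) for Msx2. Capitals mark E-boxes (CANNTG, the core bound by SCX and other helix-loop-helix factors) and the homeodomain core TAATTA.
Tnmd: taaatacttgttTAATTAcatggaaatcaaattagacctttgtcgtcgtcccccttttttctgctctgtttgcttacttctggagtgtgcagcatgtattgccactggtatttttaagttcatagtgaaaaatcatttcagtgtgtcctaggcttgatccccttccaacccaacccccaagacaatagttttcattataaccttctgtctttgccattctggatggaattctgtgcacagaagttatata
Msx2: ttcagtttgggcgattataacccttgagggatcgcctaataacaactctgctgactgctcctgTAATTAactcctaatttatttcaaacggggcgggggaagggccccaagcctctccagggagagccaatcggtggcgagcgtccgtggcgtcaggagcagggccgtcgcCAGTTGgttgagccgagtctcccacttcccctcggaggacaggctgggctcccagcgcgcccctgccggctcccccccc
Both windows held a TAATTA, whose first base lay 238 bases before the start in Tnmd and 187 in Msx2, and 4.84% of the 32851 mouse promoter windows of the same length held it. Msx2 held an E-box, CAGTTG, with its first base 79 bases before the start, and the Tnmd window held no CANNTG, against 66.2% of all windows with 1 or more. The variant homeodomain core TAATTG and the RUNX core TGTGGT, each searched on both strands, were in neither window and in 7.17% and 14% of all windows. Both patterns, CANNTG and TAATTA, read the same on either strand. GC content was 38.4% for Tnmd and 61.6% for Msx2. These matches are letters in a window and not measured binding sites.

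The change from day 0 to day 4 asked what the first days after the factors are introduced do to these regulators. Factor expression, transduction and the days of culture all lie in that contrast and cannot be told apart. In WT cells 6 of the 8 regulators fell, Dlx5, Msx2, Sp7, Sox9, Scx and Tnmd, Alpl rose and Dlx3 did not pass. A gene passed at an adjusted p under 0.05 in limma's moderated test, with Benjamini-Hochberg adjustment over all 22180 genes, and by that rule 22.9% of all genes passed, 11.1% higher and 11.7% lower. In KO cells the same 6 genes fell and none rose, and there 30.8% of all genes passed, 13.8% higher and 16.9% lower. The median log2 change of the 8 regulators was -0.69 in WT and -0.63 in KO cells, against -0.0083 and -0.00998 over all genes. Since the set was chosen with earlier results of these data known, its counts and medians beside all genes are descriptions and no independent test.

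The comparison of genotypes asked whether loss of Gdap1 alters these genes before and during reprogramming. Loss of Gdap1, the embryos or cultures each genotype came from and their mix of cells all lie in that contrast. They cannot be told apart. At day 0 Dlx5 and Tnmd were lower in KO cells and Msx2 and Sp7 were higher, 4 of the 8, where 5.6% of all genes passed (2.48% higher, 3.12% lower). At day 4 Dlx5, Sox9 and Tnmd were lower in KO cells, 3 of the 8, and 20.7% of all genes passed (8.34% higher, 12.4% lower). For the contrast of both day 4 changes (KO change less WT change) Dlx5 passed, where 3.95% of all genes passed (2.15% higher, 1.81% lower). The median difference of the 8 regulators was -0.10 at day 0 and -0.25 at day 4, beside -0.0043 and 0.0026 over all genes. These counts and medians are descriptions too, for the same reason. The genotype differences at day 0 and the day 4 changes share the day 0 arrays, so they are not independent of each other.

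**Figure D1:**
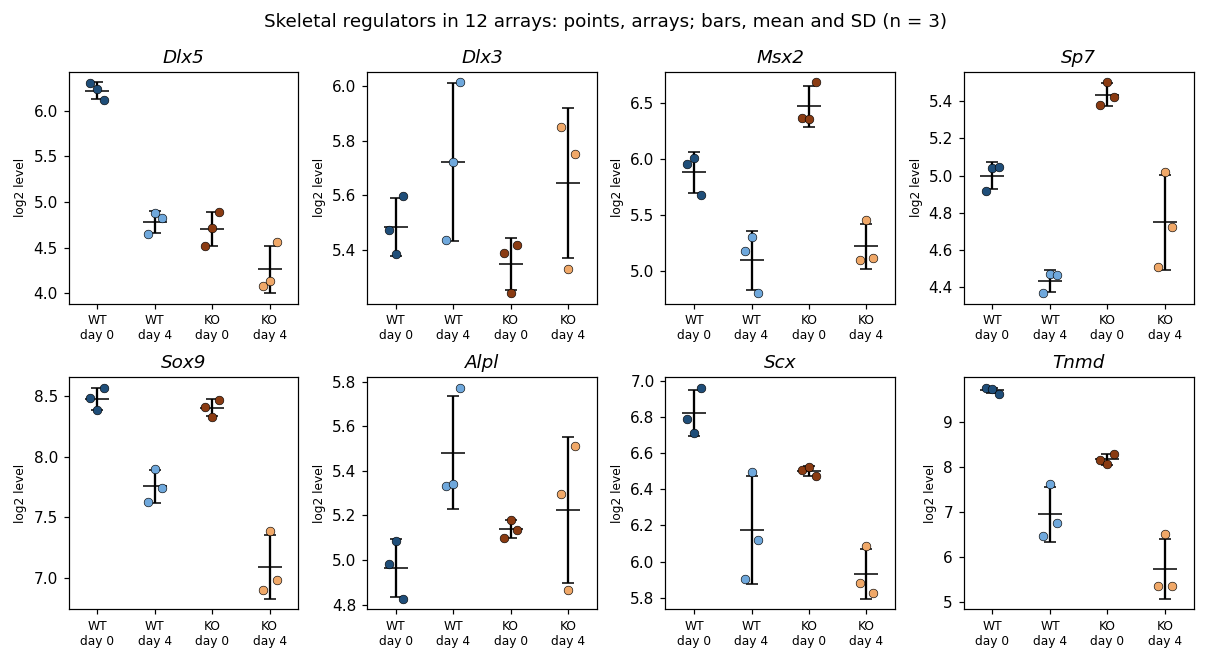
Log2 level (vertical axis, its own scale in each panel) of each of the 8 regulators in the 12 arrays, by group. Points are arrays and bars are the group mean with the SD (n = 3). Tnmd lies between 9.63 and 9.75 in WT day 0 arrays and between 5.35 and 6.50 in KO day 4 arrays, and Dlx5 is above 6 in WT day 0 arrays alone.

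Among the homeobox factors, Dlx5 had log2 levels of 6.30, 6.24 and 6.12 in WT day 0 arrays 1 to 3, and of 4.65, 4.88 and 4.82 at WT day 4. In KO arrays it was 4.51, 4.72 and 4.89 at day 0 and 4.08, 4.14 and 4.56 at day 4. The WT day 0 arrays stood clear of the other 9, and the KO day 0 arrays overlapped the WT day 4 arrays. Dlx5 was 2.85-fold lower in KO than in WT cells before reprogramming (-1.51 ± 0.13, SE, n = 3 per group, limma adjusted p = 2.72e-05). From day 0 to day 4 it fell by 1.44 ± 0.13 on the log2 scale in WT cells (2.71-fold, adjusted p = 7.36e-06). In KO cells it fell by 0.45 ± 0.13 (adjusted p = 0.0194). That last call was lost without KO day 0 array 2 (adjusted p = 0.0535) or 3 (0.089), or without KO day 4 array 1 (0.0841) or 2 (0.0669), and the KO arrays of both days overlapped. The day 4 KO arrays were lower than the WT ones by 0.52 ± 0.13 (adjusted p = 0.0135). Dropping WT day 4 array 2 (0.0516) or KO day 4 array 1 (0.0571), or fitting the day 4 arrays alone (0.0595), ended this call.

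The day 4 change of Dlx5 was smaller in KO than in WT cells by 0.99 ± 0.18 (limma adjusted p = 0.0126). KO cells started from a mean of 4.71, against 6.22 in WT cells, and reached 4.26 at day 4. The 25th percentile level was 3.75. Whether the lower start limited the KO fall was not tested. Dlx6, which lies beside Dlx5 in a convergently transcribed pair, had log2 levels between 3.82 and 4.25 in all 12 arrays. These lie near the 25th percentile level of 3.75, where a fall as large as that of Dlx5 in WT cells may not be seen in full. Dlx6 differed by -0.05 ± 0.09 between KO and WT at day 0 (adjusted p = 0.852), and by -0.26 ± 0.09 (adjusted p = 0.0669) and -0.19 ± 0.09 (adjusted p = 0.155) between the days in WT and KO cells. The 3 genes whose levels followed Dlx5 most closely over the 12 arrays were Mustn1, expressed in the musculoskeletal system (Pearson r = 0.97), Fhl5 (0.96), a LIM-domain protein, and Paqr8 (0.96), a membrane progestin receptor. Mustn1 had a mean log2 level of 9.09 at WT day 0, and of 8.19, 8.06 and 7.86 at WT day 4, KO day 0 and KO day 4. These correlations are descriptions, since the arrays fall into 4 groups that separate most genes.

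Dlx3, a homeobox factor of bone, hair follicle and epidermis, had log2 levels of 5.47, 5.39 and 5.60 in WT day 0 arrays and 5.44, 5.72 and 6.01 at WT day 4. In KO arrays it was 5.39, 5.24 and 5.42 at day 0 and 5.85, 5.33 and 5.75 at day 4. The 4 groups overlapped in every comparison, and the day 4 arrays were the more widely spread. Its day 4 change was 0.24 ± 0.15 in WT cells (limma adjusted p = 0.322) and 0.29 ± 0.15 in KO cells (adjusted p = 0.168). When the pair of day 4 arrays least like their groups' other arrays (WT 1 and KO 2) was dropped, a choice made with the values known, the changes were 0.38 and 0.45 (adjusted p = 0.0205 and 0.00584). Without KO day 4 array 2 alone the KO change also passed (0.45, adjusted p = 0.0311), whereas it was 0.19 without KO day 4 array 1. The WT change was 0.092 without WT day 4 array 3. Its neighbour Dlx4 ranged from 3.90 to 4.28 over the 12 arrays, near the 25th percentile level of 3.75.

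Msx2, a homeobox repressor of early bone and of skin appendages, was 5.95, 6.01 and 5.67 in WT day 0 arrays and 5.18, 5.31 and 4.80 at WT day 4. In KO arrays it was 6.37, 6.36 and 6.68 at day 0 and 5.10, 5.45 and 5.12 at day 4. All KO day 0 arrays lay above all WT day 0 arrays, and the day 4 arrays of both genotypes overlapped. Msx2 fell by 0.78 ± 0.15 on the log2 scale in WT cells (limma adjusted p = 0.00194) and by 1.25 ± 0.15 in KO cells (adjusted p = 4.63e-05). The KO excess at day 0 was 0.59 ± 0.15 (adjusted p = 0.0374) and was no longer called without any 1 of the 6 day 0 arrays (adjusted p between 0.0619 and 0.167) or when all probe sets were tested (0.0864). At day 4 KO minus WT was 0.12 ± 0.15 (adjusted p = 0.613), and the difference of the day 4 changes was -0.46 ± 0.21 (adjusted p = 0.255). The closest followers of Msx2 over the 12 arrays were Mtmr11 (r = 0.98), Tgif1, a homeobox repressor (0.97), and Shc2 (0.97).

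The osteoblast factor Sp7 had log2 levels of 4.92, 5.04 and 5.04 in WT day 0 arrays and 4.37, 4.47 and 4.46 at WT day 4. In KO arrays it was 5.38, 5.50 and 5.42 at day 0 and 4.51, 5.02 and 4.73 at day 4. The groups of each compared pair did not overlap, and the order of levels ran from KO day 0 through WT day 0 and KO day 4 to WT day 4, with KO day 4 array 2 reaching the WT day 0 levels. Sp7 fell by 0.57 ± 0.11 on the log2 scale in WT cells (limma adjusted p = 0.00209) and by 0.69 ± 0.11 in KO cells (adjusted p = 0.000391). KO cells were higher by 0.43 ± 0.11 at day 0 (adjusted p = 0.0357), again a call that did not survive the loss of any 1 of the 6 day 0 arrays (adjusted p between 0.0804 and 0.143) or the test of all probe sets (0.0796). At day 4 the difference was 0.32 ± 0.11 (adjusted p = 0.0596), and it passed without genes under the 25th percentile of level (0.0475) and without KO day 4 array 1 (0.44, adjusted p = 0.0127), whereas without KO day 4 array 2 it was 0.18. Mamdc2, Slc6a17 and Enah, a regulator of actin filaments, followed Sp7 most closely over the 12 arrays (r = 0.98 each).

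Alpl, the mineralising phosphatase, was the member that rose. Its probe set gave 4.98, 5.08 and 4.83 in WT day 0 arrays and 5.33, 5.34 and 5.77 at WT day 4, without overlap, and the rise was 0.52 ± 0.15 (limma adjusted p = 0.028). In KO arrays Alpl was 5.10, 5.18 and 5.14 at day 0 and 5.29, 4.87 and 5.51 at day 4, overlapping, with a change of 0.085 ± 0.15 (adjusted p = 0.734). The difference of these changes did not pass (-0.43 ± 0.22, adjusted p = 0.309), so the genotypes were not shown to differ in it. The WT rise ended when WT day 0 array 1 was dropped (adjusted p = 0.0679), without WT day 0 array 3 (0.105) or WT day 4 array 3 (0.12), and when all probe sets were tested (0.0561). A second, dimmer Alpl probe set gave 4.58, 4.78 and 4.82 at WT day 0 and 4.92, 4.89 and 5.02 at WT day 4, a change of 0.22 ± 0.09 (adjusted p = 0.136 over all probe sets). Between the genotypes Alpl differed by 0.17 ± 0.15 at day 0 and -0.26 ± 0.15 at day 4 (adjusted p = 0.656 and 0.273).

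Sox9 had log2 levels of 8.48, 8.39 and 8.57 in WT day 0 arrays and 8.41, 8.33 and 8.47 in KO day 0 arrays. At day 4 it was 7.63, 7.90 and 7.74 in WT and 6.90, 7.39 and 6.98 in KO arrays. The day 0 groups overlapped, and from there all day 4 arrays were lower, with every KO array under every WT array. Sox9 fell by 0.73 ± 0.12 on the log2 scale in WT cells (1.65-fold, limma adjusted p = 0.000686) and by 1.32 ± 0.12 in KO cells (2.49-fold, adjusted p = 6.36e-06). At day 0 the genotypes differed by -0.074 ± 0.12 (KO minus WT, adjusted p = 0.839), and at day 4 by -0.66 ± 0.12 (adjusted p = 0.00219). The difference of the day 4 changes was -0.59 ± 0.17 and just missed the threshold (adjusted p = 0.0729). It passed without WT day 4 array 1 (-0.65, adjusted p = 0.0355), without KO day 4 array 2 (-0.74, 0.0107), with array weights (-0.67, 0.0164) and with a trended robust prior (-0.59, 0.0391). Its closest followers over the 12 arrays were Calr, which encodes the endoplasmic reticulum chaperone calreticulin, Zswim8 and Tceal8 (r = 0.99 each).

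**Figure D2:**
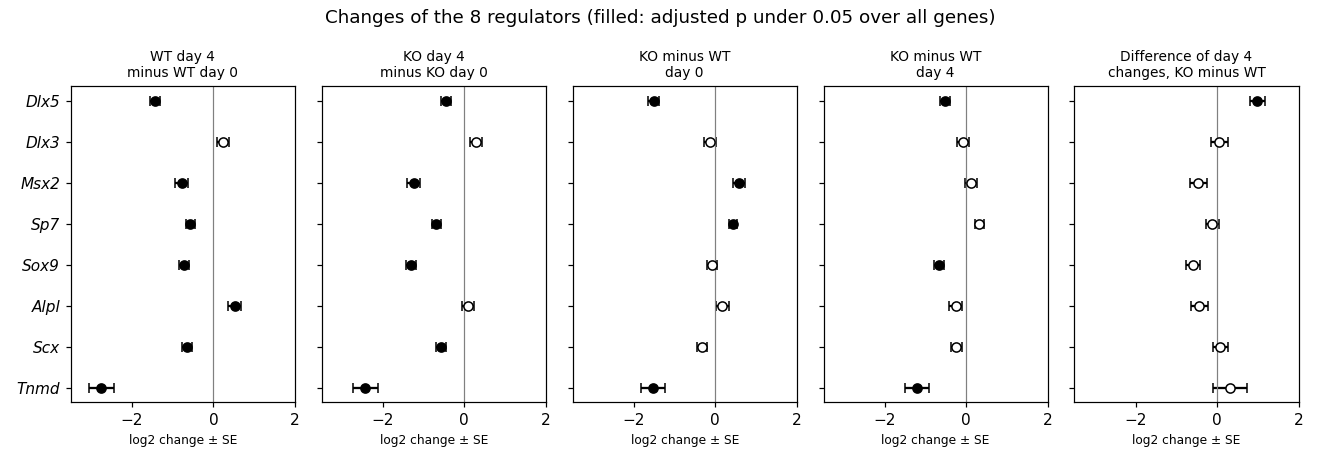
Log2 change with its SE (horizontal axis) of the 8 regulators in the 5 comparisons, with filled points for an adjusted p under 0.05 over all genes. The day 4 changes of Dlx5, Msx2, Sp7, Sox9, Scx and Tnmd lie left of 0 in both genotypes, from -2.75 to -0.45, and the difference of the day 4 changes is filled for Dlx5 alone.

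Of the tendon genes, Scx had log2 levels of 6.79, 6.71 and 6.96 in WT day 0 arrays and 5.91, 6.50 and 6.12 at WT day 4. In KO arrays it was 6.51, 6.52 and 6.47 at day 0 and 5.88, 6.09 and 5.83 at day 4. Scx fell without overlap of the days by 0.65 ± 0.13 on the log2 scale in WT cells (limma adjusted p = 0.00273) and by 0.57 ± 0.13 in KO cells (adjusted p = 0.00479). All KO day 0 arrays were under all WT day 0 arrays, yet the difference of -0.32 ± 0.13 did not pass (adjusted p = 0.224). With the day 0 arrays fitted alone it did (adjusted p = 0.0307), as it did narrowly with array weights (0.0496). At day 4 KO minus WT was -0.24 ± 0.13 (adjusted p = 0.219), and it was -0.38 (adjusted p = 0.0353) without WT day 4 array 1 but -0.082 without WT day 4 array 2.

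Tnmd, with the largest fall of the 8 in both genotypes, had log2 levels of 9.75, 9.72 and 9.63 in WT day 0 arrays and 8.16, 8.06 and 8.30 in KO day 0 arrays. At day 4 it was 6.47, 7.63 and 6.75 in WT and 5.37, 6.50 and 5.35 in KO arrays. The day 0 arrays were tight, with SDs of 0.06 in WT and 0.12 in KO, and the day 4 arrays spread with SDs of 0.61 and 0.66. Tnmd fell 6.72-fold in WT cells (log2 change -2.75 ± 0.30, limma adjusted p = 3.02e-05) and 5.39-fold in KO cells (-2.43 ± 0.30, adjusted p = 5.93e-05). KO cells were lower by 1.53 ± 0.30 before reprogramming (2.88-fold, adjusted p = 0.00877) and by 1.21 ± 0.30 at day 4 (adjusted p = 0.0133). The day 4 groups overlapped through KO array 2, and the call ended when WT day 4 array 2 (adjusted p = 0.0502), KO day 4 array 1 (0.0568) or KO day 4 array 3 (0.0555) was dropped, and in a fit to the day 4 arrays alone (0.0838). The day 4 changes of Tnmd differed by 0.32 ± 0.43 (adjusted p = 0.756). Pop7, a subunit of ribonucleases P and MRP (r = 0.99), Sh3gl1 (0.98) and Lrrk1 (0.98) followed it most closely over the 12 arrays.

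Beside these genotype differences stood the lower macrophage markers of the KO arrays, with a median log2 difference of -1.27 at day 0 and -1.18 at day 4. Their part in the differences of Dlx5, Tnmd, Msx2, Sp7 and Sox9 was not tested. Keratinocyte markers, relevant to Dlx3 and Msx2, did not pass between the genotypes at day 0 in any of 7 cases, and 4 of 7 were lower in KO cells at day 4. From day 0 to day 4, 2 of the 7 were higher in WT cells, and 2 were higher and 2 lower in KO cells. The median changes of the list were 0.10 and -0.15. Krt14, a keratin of basal epidermis, was named after its values were seen and does not stand for the list. Krt14 rose by 1.51 ± 0.17 in WT cells (limma adjusted p = 3.9e-05) and by 0.67 ± 0.17 in KO cells (adjusted p = 0.00938). It was lower in KO than WT cells at day 4 (-1.27 ± 0.17, adjusted p = 0.000385). The mean level of the 7 was 4.14 in all WT day 0 arrays and ran from 4.39 to 4.50 at WT day 4, from 4.02 to 4.22 at KO day 0 and from 4.11 to 4.18 at KO day 4, with 3 of the 7 under the 25th percentile. Fibroblast markers themselves were lower at day 4 in 5 of 8 cases in WT and 4 of 8 in KO cells. Their medians were -0.40 and -0.19. Of all genes 11.7% were lower and 11.1% higher at day 4 in WT cells, and 16.9% and 13.8% in KO cells. With 7 or 8 markers per list, a count of 1 or 2 is not read as a shift. Osteoclast markers, whose cells also resorb bone, were lower at day 4 in 1 of 7 cases in WT and 3 of 7 in KO cells, and their mean level stayed between 4.35 and 4.75 in all arrays. Skeletal muscle markers were lower in 3 of 7 cases in WT and 2 of 7 in KO cells, and endothelial markers in 2 of 7 in each, with 1 of 7 higher in WT. Adipocyte markers were higher in 2 of 7 cases and lower in 1 in WT, and higher in 3 of 7 in KO cells. Between the genotypes at day 4, 2 of 8 fibroblast markers were higher and 1 lower in KO cells, 1 of 7 adipocyte markers was higher and 2 lower, 2 of 7 osteoclast markers were lower and 1 of 7 skeletal muscle markers was higher. At day 0, 1 of 8 fibroblast markers was higher in KO cells, and 1 of 7 adipocyte and 1 of 7 endothelial markers were lower. The shares of all genes were 8.34% higher and 12.4% lower in KO cells at day 4, and 2.48% and 3.12% at day 0. The part of these cell types in the day 4 changes and genotype differences of the 8 regulators was not tested either.

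Genes that work with or downstream of the regulators were taken from 4 lists of 87 genes, of which 78 were measured: relatives and modulators of the Dlx, Msx and RUNX factors, osteoblast and bone matrix genes, cartilage genes, and tendon and ligament genes. The lists, like the regulators, were chosen with earlier results of these data known. Some list counts below are also given with 1 array dropped, and the count over all genes moved in such fits too. Over all genes it ran from 3977 to 5165 (WT day 4 change) and from 5539 to 7646 (KO). For the genotype it ran from 769 to 1936 at day 0 and from 2946 to 5929 at day 4. Among relatives and modulators, 6 of 17 were lower and 4 higher at day 4 in WT cells (median -0.08). In KO cells 5 were lower and 5 higher (median 0.13). Over all genes 11.7% were lower and 11.1% higher in WT cells, and 16.9% and 13.8% in KO cells. Dlx2, another Dlx factor, fell by 0.57 ± 0.09 on the log2 scale in WT cells (limma adjusted p = 0.000408) and by 0.41 ± 0.09 in KO cells (adjusted p = 0.00303). Twist2, a repressor of RUNX2 and of osteoblast maturation, fell by 0.97 ± 0.13 (adjusted p = 0.000164) and by 1.73 ± 0.13 (adjusted p = 1.8e-06). Wwtr1 (TAZ), a RUNX2 coactivator, rose by 0.47 in WT and 0.55 in KO cells, and Cbfb, the shared partner of RUNX proteins, fell by 0.44 in WT cells (adjusted p = 0.0406) and fell by 0.76 in KO cells (adjusted p = 0.00124). Twist1, which also restrains RUNX2, rose by 0.57 in KO cells (adjusted p = 0.00114) and changed by 0.24 in WT cells, which did not pass (0.127). Zfp521 rose by 0.55 in WT cells (adjusted p = 0.00208) and by 0.49 in KO cells (0.00339).

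Between the genotypes 1 of these 17 was higher and 1 lower at day 0, where 2.48% and 3.12% of all genes were. Twist2 had log2 levels of 9.68, 9.91 and 9.84 in KO day 0 arrays against 8.53, 8.49 and 8.66 in WT day 0 arrays (1.25 ± 0.13, limma adjusted p = 0.000132). Hey1, a Notch target that represses RUNX2, was 5.32, 5.45 and 5.33 in KO day 0 arrays against 6.62, 6.65 and 6.52 in WT (-1.23 ± 0.19, adjusted p = 0.00155). At day 4 Twist2 was still higher in KO cells (0.50 ± 0.13, adjusted p = 0.0193), a call that ended when WT day 4 array 3 (0.0815) or KO day 4 array 2 (0.0601) was dropped. Zfp521 and Zfp423, related zinc finger factors, were lower (-0.45 and -0.37, adjusted p = 0.0107 and 0.0427). The count of these 17 at day 4 was 3, where 20.7% of all genes passed. It was 8 without WT day 4 array 1 and 1 without WT day 4 array 3 or without KO day 4 array 2. The count over all genes ran from 2946 to 5929 when 1 array was dropped. The Zfp423 call was lost in every such omission but those of WT day 0 arrays 2 and 3, WT day 4 array 1 and KO day 0 arrays 2 and 3.

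Of the osteoblast and bone matrix genes, 2 of 17 were higher and 2 lower at day 4 in each genotype. The medians were 0.09 in WT and -0.06 in KO cells. These counts were near or under the share of all genes that passed, 22.9% in WT and 30.8% in KO cells. Bglap (osteocalcin) and Ibsp, late osteoblast genes, did not pass in any of the 5 comparisons. Ibsp had group means between 3.55 and 3.64, under the 25th percentile level of 3.75, where a fall may not show. In WT cells Phex and Ifitm5, both active in mineralising osteoblasts, rose by 0.74 and 0.55 (limma adjusted p = 0.00747 and 0.0107). Their KO values of 0.42 and 0.17 did not pass (0.0895 and 0.397). The 12-array mean of Phex was 3.61, also under that percentile level, and its WT rise started from 3.34. Ank, a pyrophosphate transporter, fell by 0.54 in WT cells, a call that ended without WT day 0 array 2 (adjusted p = 0.0513), and fell by 0.62 in KO cells (adjusted p = 0.00381). In KO cells the small proteoglycan gene Omd rose by 1.02 ± 0.22 (adjusted p = 0.00277) and the Wnt co-receptor gene Lrp5 by 0.60 ± 0.09 (adjusted p = 0.000266), and their WT values of 0.36 and 0.25 did not pass (0.294 and 0.0687). The difference between genotypes passed for none of these 4 genes (Phex, Ifitm5, Omd and Lrp5, adjusted p = 0.539, 0.315, 0.256 and 0.152). The KO rise of Omd started from a mean of 3.80, near the 25th percentile level of 3.75. Without WT day 4 array 1, 7 of the 17 genes passed in WT cells. The count over all genes ran from 3977 to 5165 when 1 array was dropped.

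Between the genotypes 4 of the 17 were higher and 1 lower in KO cells at day 0, where 2.48% and 3.12% of all genes were. At day 4, 5 were higher and 2 lower, against 8.34% and 12.4% of all genes. Mmp13, a collagenase that is a classical RUNX2 target, had log2 levels of 9.33, 9.28 and 9.32 in KO day 0 arrays against 6.48, 6.28 and 6.39 in WT (2.92 ± 0.59, limma adjusted p = 0.00963), lost with a trended robust prior (0.0537). At WT day 4 Mmp13 was 8.35, 6.06 and 5.03, array 1 standing highest, against 8.54, 9.56 and 8.70 in KO arrays (2.45 ± 0.59, adjusted p = 0.0107). Tnfrsf11b (osteoprotegerin, the decoy receptor that restrains osteoclasts) was higher in KO cells by 0.65 ± 0.14 at day 0 (adjusted p = 0.013) and by 1.70 ± 0.14 at day 4 (adjusted p = 1.32e-05). The day 0 call for Tnfrsf11b was lost without WT day 0 array 2 (0.056), KO day 0 array 2 (0.0627) or KO day 0 array 3 (0.0599). Tnfsf11, of the same list, was also higher in KO cells, by 1.05 ± 0.27 at day 0 (adjusted p = 0.0424) and by 1.10 ± 0.27 at day 4 (adjusted p = 0.0132). Smpd3, a sphingomyelinase needed for mineralisation, was lower by 0.56 and 0.49 (adjusted p = 0.00824 and 0.00754). Col24a1, a fibrillar collagen of bone, was higher in KO cells by 0.74 at day 0 (adjusted p = 0.00824) and by 0.52 at day 4 (adjusted p = 0.0231). Sost (sclerostin, a Wnt inhibitor of osteocytes) was lower in KO cells by 0.60 at day 4 (adjusted p = 0.00446). The day 0 count of 5 became 3 without WT day 0 array 2 or KO day 0 array 2 or 3, and the day 4 count of 7 became 4 without WT day 4 array 2 or 3.

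**Figure D3:**
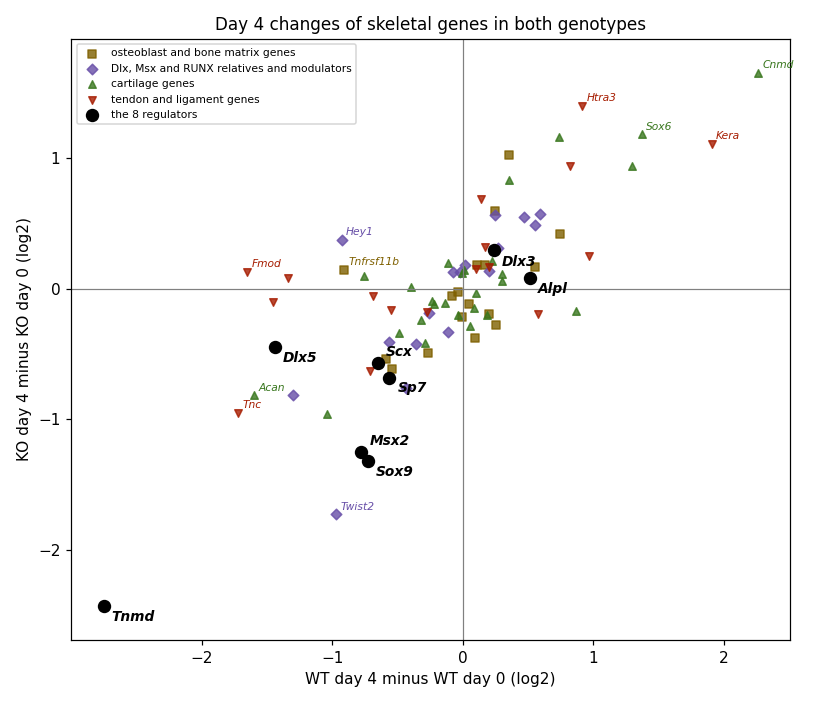
Log2 change from day 0 to day 4 in WT (horizontal axis) and KO cells (vertical axis) of the 8 regulators (black) and of the genes of the 4 related lists. Tnmd lies at -2.75 and -2.43, and Fmod, Hey1 and Tnfrsf11b lie below 0 in WT and above 0 in KO cells. The KO changes of Fmod, Hey1 and Tnfrsf11b did not pass the threshold.

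Cartilage genes split in both directions. In WT cells 6 of 27 were higher and 5 lower at day 4 (median 0.01), beside 11.1% and 11.7% of all genes. In KO cells 5 were higher and 3 lower (median -0.03), beside 13.8% and 16.9% of all genes. Acan, the aggrecan core protein and a SOX9 target, had log2 levels of 5.41, 5.44 and 5.36 in WT day 0 arrays and 3.99, 3.71 and 3.71 at WT day 4. In KO arrays Acan was 4.85, 4.67 and 4.86 at day 0 and 3.96, 3.81 and 4.16 at day 4. It fell by 1.60 ± 0.10 on the log2 scale in WT cells (limma adjusted p = 7.02e-07) and by 0.82 ± 0.10 in KO cells (adjusted p = 7.64e-05), and was lower in KO than WT cells at day 0 (-0.61 ± 0.10, adjusted p = 0.00352). Col10a1, the collagen of hypertrophic cartilage and a RUNX2 target, fell by 1.04 and 0.96.

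Other cartilage genes rose at day 4. Sox6, which acts together with SOX9, rose by 1.37 ± 0.16 (limma adjusted p = 4.87e-05) in WT and 1.18 ± 0.16 (adjusted p = 0.000113) in KO cells. Cnmd (chondromodulin), the closest relative of Tnmd, rose by 2.26 ± 0.27 (adjusted p = 6.05e-05) and 1.66 ± 0.27 (adjusted p = 0.000476), against the falls of Tnmd itself. Cnmd was 3.67, 3.56 and 3.65 at WT day 0, under the 25th percentile level of 3.75, and 5.81, 5.28 and 6.56 at WT day 4. The cartilage link protein gene Hapln1 rose by 0.74 and 1.16. The WT count of 11 was 7 without WT day 0 array 1 or 3 and in a fit to the WT arrays alone.

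Between the genotypes 1 of 27 cartilage genes was higher and 3 lower in KO cells at day 0, where 2.48% and 3.12% of all genes were. At day 4, 3 were higher and 5 lower, against 8.34% and 12.4% of all genes. Prg4 (lubricin, of joint surfaces) had log2 levels of 7.88, 7.74 and 7.86 in KO day 0 arrays against 5.87, 5.94 and 6.07 in WT (1.87 ± 0.25, limma adjusted p = 0.000701), and was higher by 2.36 ± 0.25 at day 4 (adjusted p = 0.000111). Col2a1, the main cartilage collagen and a SOX9 target, was 6.17, 6.09 and 6.25 against 6.70, 6.87 and 6.65 (-0.57 ± 0.12, adjusted p = 0.0141), lost without WT day 0 array 2 (0.0723) or KO day 0 array 1 (0.0536) or 2 (0.0691). Barx1, a homeobox factor of cartilage condensations, was lower by 0.47 ± 0.12 (adjusted p = 0.0397), a call lost without any 1 of the 6 day 0 arrays or without KO day 4 array 2 (adjusted p between 0.0504 and 0.165). Col2a1 and Barx1 were also lower in KO cells at day 4 (-0.42 and -0.39, adjusted p = 0.0276 and 0.0379). The day 0 count of 4 became 2 without WT day 0 array 2 or KO day 0 array 1 or 2, and 7 in a fit to the day 0 arrays alone. At day 4 Epyc, a small proteoglycan of cartilage, and Nkx3-2 were lower in KO cells (-1.18 and -0.43, adjusted p = 0.0051 and 0.00125) and Hapln1 was higher (0.61, adjusted p = 0.0119). Epyc was 4.25, 5.54 and 4.80 in WT day 4 arrays. Its KO day 4 mean of 3.68 lay under the 25th percentile level of 3.75. The day 4 count of 8 became 5 without WT day 4 array 3. Fitted to the day 4 arrays alone, the genotype calls at day 4 of Hapln1 (adjusted p = 0.0752), Mmp13 (0.0768), Smpd3 (0.0633), Twist2 (0.0898), Zfp521 (0.0784) and Fmod (0.101) were not reached.

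Of the tendon and ligament genes, 8 of 17 were lower and 5 higher at day 4 in WT cells (median 0.10). There 11.7% of all genes were lower and 11.1% higher. In KO cells 2 were lower and 3 higher (median 0.13), a count of 5 that was 9 without KO day 4 array 2. The share of all genes that passed in KO cells was 30.8%, 16.9% lower and 13.8% higher. Tnc, the matrix glycoprotein tenascin C, fell by 1.72 ± 0.18 on the log2 scale in WT cells (limma adjusted p = 2.24e-05) and by 0.95 ± 0.18 in KO cells (adjusted p = 0.00144). Mkx, a homeobox factor of tendon, rose by 0.82 ± 0.09 in WT cells (adjusted p = 4.69e-05) and by 0.94 ± 0.09 in KO cells (adjusted p = 1.33e-05), opposite to Scx. Kera (keratocan) rose by 1.90 ± 0.22 and 1.11 ± 0.22, and the serine protease gene Htra3 by 0.92 and 1.40. The homeobox gene Six2 fell by 0.71 in WT cells (adjusted p = 0.000639) and by 0.63 in KO cells (adjusted p = 0.00114).

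At day 0, 7 of the 17 tendon and ligament genes were lower in KO cells and 1 was higher (median -0.26). The shares of all genes were 3.12% lower and 2.48% higher. Of the 17, 4 were lower and 5 higher at day 4, where 12.4% and 8.34% of all genes were. Fmod (fibromodulin, a proteoglycan that organises tendon collagen) had log2 levels of 9.03, 9.09 and 9.02 in WT day 0 arrays and 7.76, 7.76 and 7.68 in KO day 0 arrays (-1.31 ± 0.13, limma adjusted p = 5.95e-05). At day 4 Fmod was 7.22, 7.75 and 7.20 in WT and 7.83, 7.97 and 7.79 in KO arrays. It fell by 1.66 ± 0.13 in WT cells (adjusted p = 1.74e-06) and changed by 0.13 ± 0.13 in KO cells (adjusted p = 0.493). The KO excess of Fmod at day 4 (0.47 ± 0.13, adjusted p = 0.0181) was lost without WT day 4 array 3 (0.0824) or KO day 4 array 2 (0.0604). Col14a1, a collagen of tendon surfaces, was lower in KO cells by 1.00 ± 0.19 at day 0 (adjusted p = 0.00622) and by 1.72 ± 0.19 at day 4 (adjusted p = 0.000114), and Mkx was higher by 0.47 ± 0.09 (adjusted p = 0.0108) and 0.59 ± 0.09 (adjusted p = 0.00108). Egr2, a zinc finger factor of tendon, was lower in KO cells at day 0 by 0.70 ± 0.12 (adjusted p = 0.0044), and Tnc was higher at day 4 by 1.16 ± 0.18 (adjusted p = 0.000955). The day 0 call for Mkx was lost without WT day 0 array 1 (0.0592) or KO day 0 array 2 (0.0604). The day 0 count of 8 lay between 3 and 5 without WT day 0 array 1, 2 or 3 or KO day 0 array 1, 2 or 3, and the day 4 count of 9 was 5 without WT day 4 array 2 and 3 without WT day 4 array 3.

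**Figure D4:**
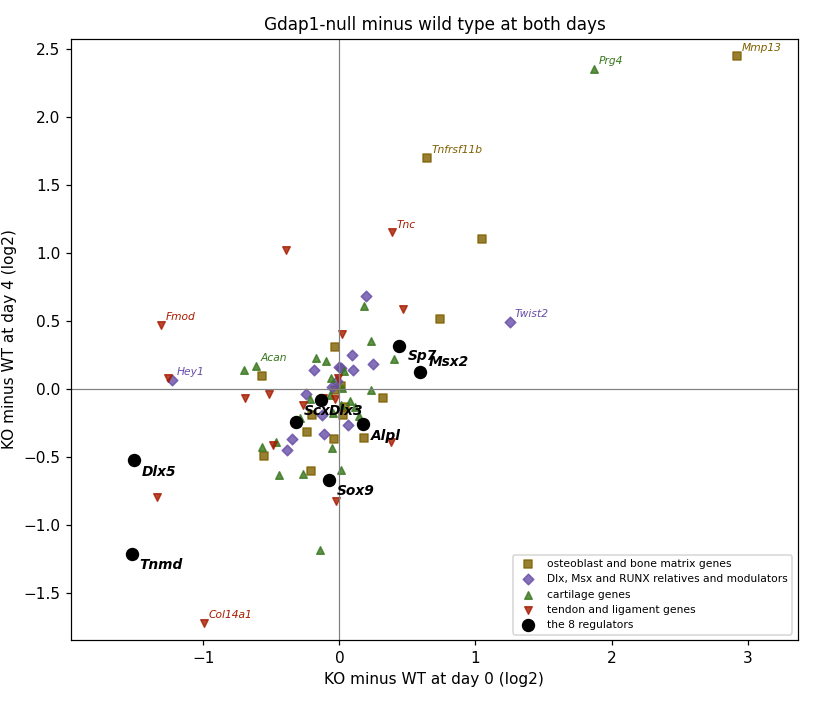
Log2 difference KO minus WT at day 0 (horizontal axis) and at day 4 (vertical axis) of the 8 regulators (black) and of the genes of the 4 related lists. Dlx5 and Tnmd lie left of -1.5 on the day 0 axis, Sox9 lies near 0 at day 0 and at -0.66 at day 4, and Mmp13 and Prg4 lie highest in KO cells at both days.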

How the data were processed

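Levels of 41345 probe sets were measured on 12 one-colour arrays. The deposited values are log2 levels made by the authors with Affymetrix Expression Console, per the submitters' processing notes, which give no version. Biotin-labelled cDNA of total RNA was hybridised, per the labels' protocols. How background was handled and how arrays were scaled and probes summarised is not stated in the labels or table. Array medians over genes lay between 5.22 and 5.32, and no normalization was added. Depth does not apply to arrays, and their number limits the precision.

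Of the probe sets, 23521 had 1 gene symbol, 1814 several and 16010 none. For each symbol the probe set of highest 12-array mean was kept, giving 22180 genes with no level filter. The table held 0 columns of other samples. All arrays entered 1 linear model holding the 4 group means and no other term (limma 3.58.1, R 4.3.3), with two-sided moderated tests, Benjamini-Hochberg adjustment over all genes and a threshold of 0.05. The model left 8 residual and 4.56 prior degrees of freedom and was tested on simulated data.

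The members and lists were chosen with earlier results of these data known. Named were all members and, from each list, up to 4 genes of smallest p among those past the threshold in each day or genotype comparison. The 3 genes most like a member by Pearson r were named for members whose group means spanned at least 1 log2 unit, predicted and clone names left out. Dlx6 and Dlx4 were named as chromosomal neighbours of members, and Bglap, Ibsp, Tnfsf11 and Krt14 after their values were seen. Same-numbered arrays of different groups had deviations correlated between -0.06 and 0.18 across genes, and were not treated as pairs.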

Additional observations from a re-analysis of the deposited data

Results flagged for a closer look

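The day 4 change differed between the genotypes, in a test of that difference, for 1 of the 8 regulators and for 5 of the listed genes named. Dlx5 gave a difference of 0.99 (KO minus WT, log2). Its fall was 1.44 in WT and 0.45 in KO cells, which started from a lower level. Whether that lower start limited the KO fall was not tested. Fmod gave 1.78 ± 0.18 (limma adjusted p = 0.000354), with a fall in WT cells and 0.13 in KO cells. Hey1 gave 1.30 ± 0.26 (adjusted p = 0.0182), with -0.93 in WT and 0.37 in KO cells, and it was 1.29 (adjusted p = 0.0503) without WT day 0 array 1. Tnfrsf11b gave 1.06 ± 0.19 (adjusted p = 0.0117), with -0.91 in WT and 0.15 in KO cells. The KO changes of Fmod, Hey1 and Tnfrsf11b did not themselves pass (adjusted p = 0.493, 0.156 and 0.473). Acan gave 0.79 ± 0.15 (adjusted p = 0.0132). KO cells started lower (4.79 against 5.40), and the day 4 means of 3.98 in KO and 3.80 in WT cells lay near the 25th percentile level of 3.75. Whether this floor limited the KO fall was not tested. Twist2 gave -0.75 ± 0.19 (adjusted p = 0.0438), a call lost in 10 of the 12 omissions of 1 array (all but WT day 4 array 1 and KO day 4 array 2), with quantile normalization (0.0546) and over all probe sets (0.095).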

How the results depend on the processing

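The falls of Tnmd at day 4 in both genotypes, of Sox9 and Msx2 in KO cells and of Dlx5 in WT cells passed under every alternative run. Those of Sp7 and Scx in both genotypes and of Sox9 and Msx2 in WT cells passed under all but the 2-fold minimum. With that minimum the regulators called were 2 and 3 for the WT and KO day 4 changes, 2 and 1 for the genotype differences at day 0 and day 4, and 0 for the difference of changes, and all genes called were 779, 834, 273, 330 and 179. Over all probe sets 2 regulators passed for the genotype at day 0 and 503 probe sets for the difference of changes. With array weights 2562 genes passed for the genotype at day 0, and 1852 genes and 2 regulators for the difference. Fits to the compared groups alone gave 2453 genes at day 0, and 1923 genes and 1 regulator at day 4. A trended robust prior gave 2 regulators for the difference. With WT day 4 array 1 dropped together with KO day 4 array 2, chosen after seeing the data, 2165 genes passed at day 0, and 2521 genes and 2 regulators for the difference.

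Leaving out 1 array, the regulators called ranged from 6 to 7 (WT day 4 change), 5 to 6 (KO), 2 to 4 (genotype at day 0), 1 to 4 (day 4) and 1 to 2 (difference), and all genes called from 3977 to 5165, 5539 to 7646, 769 to 1936, 2946 to 5929 and 395 to 2140. Without WT day 4 array 1, 1936 and 2140 genes passed for the genotype at day 0 and the difference. The sign turned in values that did not pass: Alpl in KO cells (-0.035 with the mean of its probe sets, -0.059 to 0.26 leaving out 1 array), Dlx3 and Msx2 for the genotype at day 4 (-0.22 to 0.078 and -0.023 to 0.23), and the differences of changes of Dlx3 (-0.086 to 0.21), Scx (-0.057 to 0.24; -0.042 with array weights; -0.13 without both arrays), Sp7 (-0.25 to 0.0024) and Tnmd (-0.063 to 0.66; -0.30 without both arrays). With the replicate number as a block, 7, 6, 4, 4 and 1 regulators passed, Sp7 at day 4 being added (adjusted p = 0.0347), and 4931, 6647, 1181, 4417 and 801 genes. The cause of these shifts was not tested. The alternatives on list counts and listed genes were chosen after seeing the data.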

Other observations

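Of the 2 probe sets assigned jointly to Msx1 and Msx1os, the brighter gave log2 levels of 7.01, 6.91 and 6.97 in WT day 0 arrays and 6.39, 6.25 and 6.16 in KO day 0 arrays. At day 4 it gave 6.58, 6.83 and 6.80 in WT and 6.25, 6.38 and 6.10 in KO arrays. The KO level less the WT level was -0.69 ± 0.10 (SE, 3 arrays per group, limma adjusted p = 0.00334 over all probe sets) at day 0 and -0.49 ± 0.10 (adjusted p = 0.00922) at day 4, without overlap of the genotypes at either day. Which of the 2 genes it reads was not settled, and the dimmer probe set had group means between 3.77 and 4.09 with no comparison past the threshold.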
